A study of Homo sapiens with 11 samples.

Results

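The genes examined were 10 that take up choline, build phosphatidylcholine from it, or split choline esters: SLC44A1, SLC44A2, CHKA, CHKB, PCYT1A, PCYT1B, CHPT1, CEPT1, PEMT and BCHE. They were matched by symbol to the 26485 rows of the count tables, where all 10 were found. RNA came from Caki1-SR, a human clear cell renal cell carcinoma line derived from a skin metastasis and made resistant to the receptor tyrosine kinase inhibitor sunitinib. All groups came from a single clone of the resistant line, grown in 1 µM sunitinib, so they stand for 1 subline. Treated cells (ODC) received a mixture of the ruthenium compound Rapta-C at 2 µM, the EGFR inhibitor erlotinib at 1 µM, the diabetes drug metformin at 1 µM and the plant sesquiterpene lactone parthenolide at 5 µM. The controls (CTRL) are described both as untreated and as sham-treated. There were 3 CTRL and 3 ODC libraries at 24 h, and 2 CTRL and 3 ODC libraries at 2 h. Libraries of 24 h and of 2 h carry different months in their labels, which do not say what was done in that month. Treatment time and this batch therefore cannot be told apart where levels or ODC effects at 2 h are set beside those at 24 h.

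Phosphatidylcholine is the main phospholipid of mammalian membranes. In the Kennedy pathway, choline enters through transporters of the SLC44 family, is phosphorylated by a choline kinase (CHKA or CHKB), is activated to CDP-choline by a cytidylyl transferase (PCYT1A or PCYT1B, the usual rate-limiting step), and is joined to diacylglycerol by CHPT1 or CEPT1. PEMT makes phosphatidylcholine by another route, the methylation of phosphatidylethanolamine, which is best known from liver. BCHE encodes butyrylcholinesterase, a secreted enzyme that releases choline from choline esters. The study linked gene expression with lipid measurements after ODC treatment, and choline metabolism was one of the pathways it considered. From its RNA sequencing it reported phospholipase C, acetylcholinesterase (ACHE) and butyrylcholinesterase as downregulated. Of these, only phospholipase C was given with a threshold, which included a false discovery rate under 0.05. BCHE had thus been named before from the same data.

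Library totals lay between 17785229 and 20882856 counts at 24 h and between 25782895 and 31118349 at 2 h. Levels are given as CPM (counts per 1000000, with library sizes scaled by TMM factors). The floor for detection was set at 3 counts, equal to 0.144 to 0.166 CPM in the 24 h libraries and 0.0953 to 0.116 CPM in the 2 h libraries. Of the renal epithelial markers, PAX8, KRT8 and KRT18 were at 308 CPM or more in every library, CDH16 lay between 0.719 and 13.4 CPM, and CA9 and PAX2 were absent or nearly so, with at most 1 and 4 counts per library. At 24 h KRT8 lay between 527 and 836 CPM in CTRL and between 395 and 500 CPM in ODC. KRT18 lay between 491 and 671 CPM in CTRL and between 308 and 399 CPM in ODC, so both keratins were lower without overlap. PAX8 lay between 437 and 654 CPM in CTRL and between 546 and 891 CPM in ODC, and PAX8 and CDH16 overlapped. CTRL replicate 1 at 2 h stood apart in some markers of other cells. It had 971 counts of COL1A2, 73 of DCN, 65 of LUM and 13 of VWF, where the highest count in any of the other 10 libraries was 11, 3, 4 and 2. COL1A1, abundant in every library (60.0 to 238 CPM), had 6140 counts there and at most 5135 in the others. PDGFRB was not raised there, at 3.52 CPM against 3.07 to 5.32 CPM in the other libraries at 2 h. The summed level of 5 fibroblast markers was 284 CPM in this library and 137 CPM in the other CTRL library at 2 h, against 159 to 169 CPM in the ODC libraries of that time. The 4 endothelial markers summed to 1.28 and 0.0706 CPM in these CTRL libraries and to between 0.0953 and 0.207 CPM in the ODC libraries. The 5 leukocyte markers summed to at most 2.76 CPM in any library. The part of these markers in the results at 2 h was not tested, and estimates without this library are given below. At 24 h the fibroblast markers summed to between 66.6 and 142 CPM in CTRL and between 115 and 169 CPM in ODC, nearly all from COL1A1 and PDGFRB, while COL1A2, DCN and LUM did not exceed 2 counts. In bulk RNA, fewer cells of a kind and less RNA per cell cannot be told apart.

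BCHE had the largest fold difference of the 8 tested members at 24 h. Its level was 7.64, 7.78 and 7.19 CPM in the 3 CTRL libraries and 4.43, 4.11 and 3.36 CPM in the 3 ODC libraries, from 130 to 159 counts and 70 to 90 counts. Every treated library was below every control library, and the groups did not overlap. The means were 7.54 ± 0.306 CPM for CTRL and 3.97 ± 0.545 CPM for ODC (SD, n = 3 each). The ODC level was estimated at 0.526 of the CTRL level (95% interval 0.398 to 0.696), a log2 fold change of -0.93 (standard error 0.17). The unadjusted p was 7.23e-04 and the p adjusted over the 12689 genes tested was 0.0986 (edgeR's quasi-likelihood test), so the difference did not pass an adjusted p of 0.05. By p, BCHE ranked 93 of 12689, and 125 genes had a lower log2 fold change.

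The call on BCHE depended on the model, while the size of the difference did not. The log2 fold change stayed between -1.01 and -0.82 in all 14 alternative settings. The adjusted p was 0.00307 with DESeq2, 0.0451 in a fit of all 11 libraries together, and 0.0248 when libraries with adjacent numbers were treated as pairs, a pairing the labels do not state, and it was between 0.0665 and 0.379 in the other 11 settings. The plot of BCHE by setting shows these estimates side by side.

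**Figure D1:**
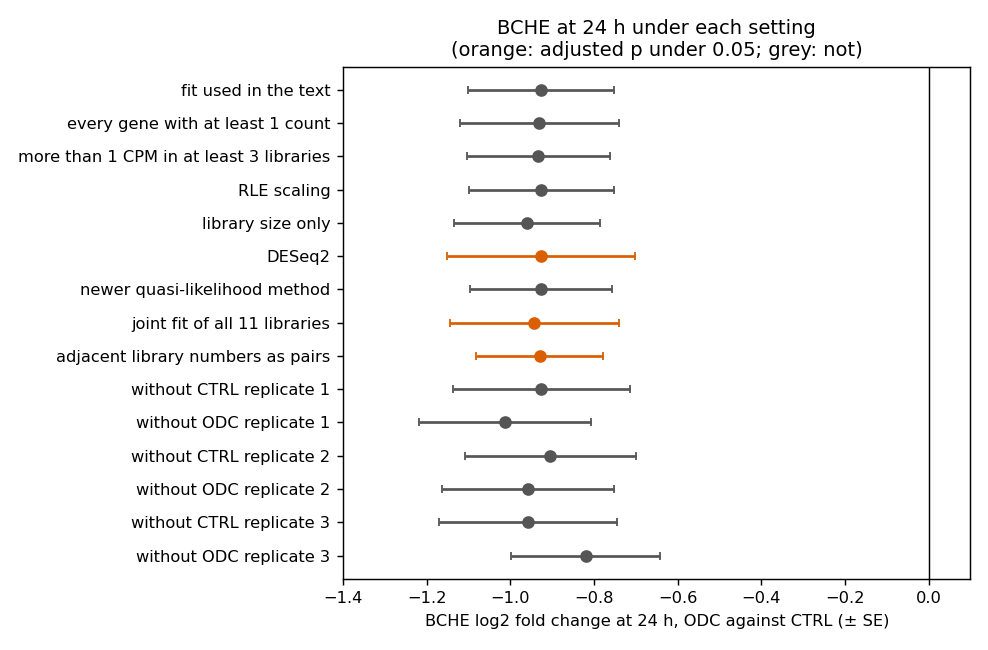
Log2 fold change of BCHE at 24 h (horizontal axis, ODC against CTRL, bars ± standard error) under the fit used in the text and 14 alternative settings (vertical axis). All estimates lie between -1.01 and -0.82, and an adjusted p under 0.05 (orange) was reached with DESeq2, with the joint fit of 11 libraries and with libraries paired by adjacent number.

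At 2 h BCHE showed no such difference. It was at 11.5 and 7.90 CPM in the CTRL libraries and at 11.9, 8.09 and 11.7 CPM in the ODC libraries. Each group held a library with about the lower value and one with about the higher value, so the groups overlapped. The log2 fold change was 0.12 (95% interval -0.41 to 0.66, adjusted p = 1.00). It was 0.42 without CTRL replicate 1, the library with high COL1A2, DCN and LUM, and -0.11 without CTRL replicate 2. The effect at 24 h minus the effect at 2 h was -1.07 on the log2 scale (standard error 0.29, 95% interval -1.71 to -0.43). Its unadjusted p was 0.00345 and its adjusted p 0.523 over 13333 genes (edgeR's quasi-likelihood test), so a difference between the times was not established across all genes. Without CTRL replicate 1 at 2 h it was -1.36 (adjusted p = 0.654).

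BCHE lies on chromosome 3 of hg38 from 165772904 to 165837462 on the minus strand (GENCODE release 44). None of its 3072 exonic bases lay in an exon of another annotated gene. Because BCHE had the largest fold difference of the tested members, its promoter is shown, from RefSeq for GRCh38.p14, the minus strand of chr3:165837374-165837673, with 250 bases before the start that RefSeq annotates, which is not the GENCODE start given above, and 50 after it. Capitals mark matches to 3 of the motifs searched.

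BCHE promoter: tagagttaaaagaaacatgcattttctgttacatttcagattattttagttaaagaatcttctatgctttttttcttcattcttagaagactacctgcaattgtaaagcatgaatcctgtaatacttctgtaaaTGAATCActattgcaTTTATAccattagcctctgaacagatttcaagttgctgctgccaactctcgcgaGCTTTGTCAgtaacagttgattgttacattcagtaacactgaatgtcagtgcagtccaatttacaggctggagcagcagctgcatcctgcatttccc

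From the 5′ end, bases 135 to 141 matched TGANTCA, a loose form of the AP-1 core that allows any base in the middle. The middle base here is A, where the AP-1 core has C or G, so this stretch does not match the core itself. Bases 150 to 155 matched TATAAA read on the other strand. Bases 204 to 212 matched TGACNNNGC, a loose form of the antioxidant response element, also on the other strand. Both strands of 35116 RefSeq promoters of this length were searched, and these motifs occurred in 7.71%, 11.5% and 13.3% of them. Of the 9 members with a promoter in the table (14 promoters, none for CHKA), BCHE alone held TGANTCA or TATAAA. TGACNNNGC was also found for PCYT1A, PEMT and SLC44A2, whose levels are given below. The GC box GGGCGG, present in 45% of all promoters, was found for 6 members (CEPT1, CHKB, CHPT1, PEMT, SLC44A1 and SLC44A2) and not in the BCHE window. CACGTG, an E-box, was found for PEMT, and in 7.26% of all promoters. These matches describe the sequence only.

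Of the 10 members, 8 had enough reads to be tested at either time, and CHKB and PCYT1B did not. At 24 h 0 of the 8 had an adjusted p under 0.05, against 0.189% of all genes tested (24 of 12689). With an unadjusted p under 0.05 there was 1, BCHE, against 12.2% of all genes. The groups did not overlap for BCHE and SLC44A1, 2 of 8, and for 17.9% of all genes. The median log2 fold change was 0.11 over the 8 members and 0.00089 over all genes, and the median size without its sign was 0.14 in both. At 2 h 0 of the 8 had an adjusted p under 0.05, as had 0% of the 13332 genes tested with edgeR. With an unadjusted p under 0.05 there were again 0 of the 8, against 2.34% of all genes (312), and DESeq2 called 1 gene and no member. The groups did not overlap at 2 h for CHPT1 alone, against 15.3% of all genes. For the difference between the times, 0 of 8 members passed with an adjusted p, against 0.015% of all genes, and 1 (BCHE) had an unadjusted p under 0.05, against 5.93%. The plot of estimated differences shows the 8 genes at both times.

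**Figure D2:**
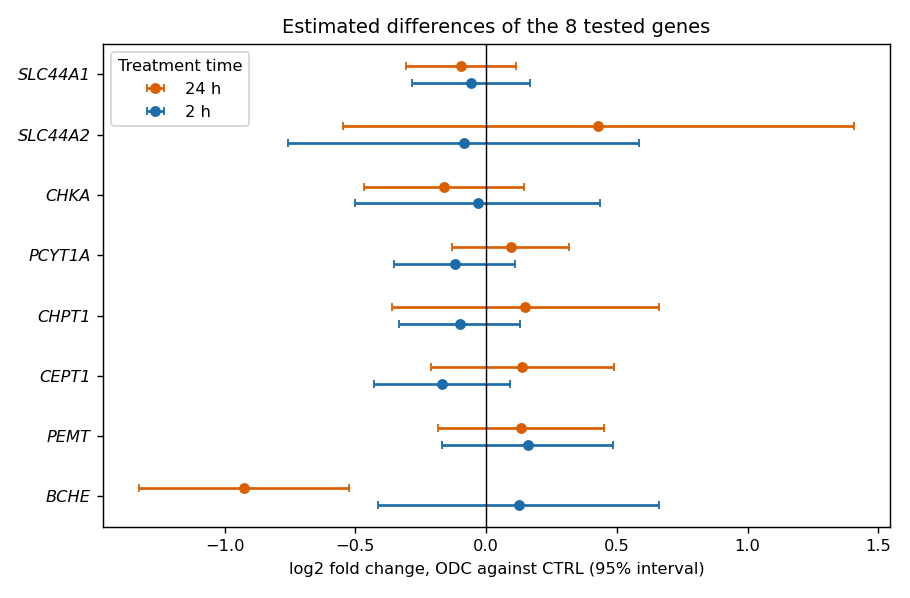
Log2 fold change of ODC against CTRL (horizontal axis) with its 95% interval for the 8 tested genes (vertical axis), at 24 h (orange) and at 2 h (blue). The interval lies apart from 0 only for BCHE at 24 h, from -1.33 to -0.52, and the intervals of SLC44A2 are the widest at each time.

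Among the transporters, SLC44A1 (also called CTL1), a choline transporter of broad expression, was abundant. At 24 h it was at 64.0, 71.8 and 63.1 CPM in CTRL and at 62.6, 61.7 and 61.6 CPM in ODC. All treated libraries were lower, but the nearest values of the groups were 0.568 CPM apart. The log2 fold change was -0.098 (95% interval -0.31 to 0.11, adjusted p = 0.732), and as a fold the interval ran from 0.808 to 1.08. At 2 h it was at 82.2 and 74.3 CPM in CTRL and at 76.8, 69.7 and 79.0 CPM in ODC, with overlap and a log2 fold change of -0.058 (95% interval -0.28 to 0.17), or 0.016 without CTRL replicate 1.

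SLC44A2, the gene of the related transporter CTL2, had the widest interval of the 8 tested members at both times. It was at 2.50, 6.63 and 2.43 CPM in CTRL and at 4.77, 7.03 and 3.80 CPM in ODC at 24 h. CTRL replicate 2 was 2.72 times as high as CTRL replicate 3 and lay within the treated range. The log2 fold change was 0.43 (95% interval -0.55 to 1.41, adjusted p = 0.748), which leaves room for a 2.65-fold rise as well as for a fall to 0.683. Without CTRL replicate 2 it was 1.07 (unadjusted p = 0.0109, adjusted p = 0.261, edgeR), without CTRL replicate 1 it was 0.18, without CTRL replicate 3 it was 0.19, and without ODC replicate 2 it was 0.15. With libraries of adjacent numbers as pairs, which the labels do not state, it was 0.52 (unadjusted p = 0.0447, adjusted p = 0.199, edgeR), and ODC was the higher library in each of the 3 pairs. The same held for PCYT1A and CEPT1, and for SLC44A1 and BCHE ODC was the lower library in each pair. How many of all genes kept 1 direction in each pair was not counted, so these directions are no result about the members. At 2 h the CTRL libraries were at 5.30 and 2.86 CPM and the ODC libraries at 4.51, 3.46 and 3.52 CPM. Here the treated values lay between the controls, and the log2 fold change of -0.086 turned to 0.42 without CTRL replicate 1.

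The choline kinases commit choline to the pathway. CHKA, which encodes choline kinase alpha, was at 49.9, 64.3 and 58.3 CPM in CTRL and at 51.4, 45.2 and 57.7 CPM in ODC at 24 h. The groups overlapped, with a log2 fold change of -0.16 (95% interval -0.47 to 0.14, adjusted p = 0.688). At 2 h CHKA was at 46.7 and 74.7 CPM in the CTRL libraries and at 66.7, 62.0 and 49.5 CPM in ODC. The controls, 1.60-fold apart, enclosed the treated values. The log2 fold change at 2 h was -0.032 (95% interval -0.50 to 0.44). It was -0.33 without CTRL replicate 1 and 0.36 without CTRL replicate 2.

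CHKB, the gene of choline kinase beta, was all but absent from the counts. It had 2, 0 and 1 counts in CTRL and 0, 1 and 0 in ODC at 24 h, and 0 in each library at 2 h except for 1 count in ODC replicate 3. No library exceeded the floor of 3 counts, so no fold change is given. CHKB lies on chromosome 22 of hg38 from 50578959 to 50601455 on the minus strand, and 72.5% of its exonic bases in GENCODE release 44 also lie in exons of the read-through gene CHKB-CPT1B on the same strand. CHKB-CPT1B has its own row in the count tables, with 0 counts in all 11 libraries, and CPT1B had at most 4. The tables hold 16 protein-coding genes that share over 50% of their exonic bases with such a read-through gene, and 11 of them (68.8%), CHKB included, had no more than 3 counts in any library. The share was 14.3% among 70 genes with 50% or less in common and 28.7% among all 18081 protein-coding genes matched. How reads in such shared exons were assigned is not given in the sources used here, and its part in the CHKB counts was not tested.

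The cytidylyl transferase step was represented by PCYT1A. Its level at 24 h was 63.9, 57.7 and 63.6 CPM in CTRL and 67.2, 60.6 and 69.6 CPM in ODC. The lowest treated library lay within the control range, and the log2 fold change was 0.093 (95% interval -0.13 to 0.32, adjusted p = 0.768). At 2 h PCYT1A was at 57.3 and 61.7 CPM in CTRL and at 58.8, 53.0 and 52.4 CPM in ODC, a log2 fold change of -0.12 (95% interval -0.35 to 0.11), or -0.17 without CTRL replicate 1. As a fold, the interval ran from 0.913 to 1.25 at 24 h and from 0.783 to 1.08 at 2 h. PCYT1B, the second cytidylyl transferase gene, known mainly from brain and gonads, had 4, 1 and 1 counts in CTRL and 2, 1 and 2 in ODC at 24 h. At 2 h it had 1 and 0 counts in CTRL and 3, 1 and 0 in ODC. Only 1 of the 11 libraries exceeded the floor, and a change was not detectable at this depth.

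The last step is shared by CHPT1, a cholinephosphotransferase, and CEPT1, which makes both phosphatidylcholine and phosphatidylethanolamine. CHPT1 was at 32.5, 29.5 and 38.0 CPM in CTRL and at 34.8, 26.4 and 49.5 CPM in ODC at 24 h. The treated libraries spanned 1.87-fold, from below the lowest to above the highest control. The log2 fold change was 0.15 (95% interval -0.36 to 0.66, adjusted p = 0.850), and it was -0.12 without ODC replicate 3 and 0.34 without ODC replicate 2.

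CEPT1 followed a like order among the treated libraries, with 26.8, 25.1 and 30.8 CPM in CTRL and 29.6, 25.7 and 35.7 CPM in ODC. Its log2 fold change at 24 h was 0.14 (95% interval -0.21 to 0.49, adjusted p = 0.783), and 0.0027 without ODC replicate 3. ODC replicate 3 was thus the highest treated library for both transferases. At 2 h the CHPT1 level was 41.7 and 44.1 CPM in CTRL and 39.7, 41.4 and 38.9 CPM in ODC. The groups were apart by 0.298 CPM, and the log2 fold change was -0.10 (95% interval -0.33 to 0.13), or -0.14 without CTRL replicate 1. CEPT1 at 2 h was at 34.7 and 38.0 CPM in CTRL and at 35.1, 30.9 and 31.0 CPM in ODC, with a log2 fold change of -0.17 (95% interval -0.43 to 0.091), or -0.23 without CTRL replicate 1. In GENCODE release 44, exons of SYCP3 on the opposite strand cover 9.45% of the exonic bases of CHPT1, and exons of DRAM2, also on the opposite strand, cover 13.6% of those of CEPT1. Exons on the opposite strand also cover 16.9% of the exonic bases of PEMT, 16.3% of CHKA and 4.88% of PCYT1A. For PCYT1A, 4.03% lies in exons of another gene on the same strand. The strand setting of the counting is not given in the sources used here.

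PEMT was at 10.6, 9.81 and 9.02 CPM in CTRL and at 10.3, 10.5 and 11.4 CPM in ODC at 24 h. The groups overlapped, and the log2 fold change was 0.13 (95% interval -0.19 to 0.45, adjusted p = 0.766). At 2 h it was at 13.0 and 14.6 CPM in CTRL and at 13.8, 15.5 and 16.8 CPM in ODC, with a log2 fold change of 0.16 (95% interval -0.17 to 0.49), or 0.077 without CTRL replicate 1. PEMT alone of the 8 tested members had a positive estimate at both times, and neither passed the test (adjusted p = 0.766 and 1.00). The plot of single libraries shows all 10 members.

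**Figure D3:**
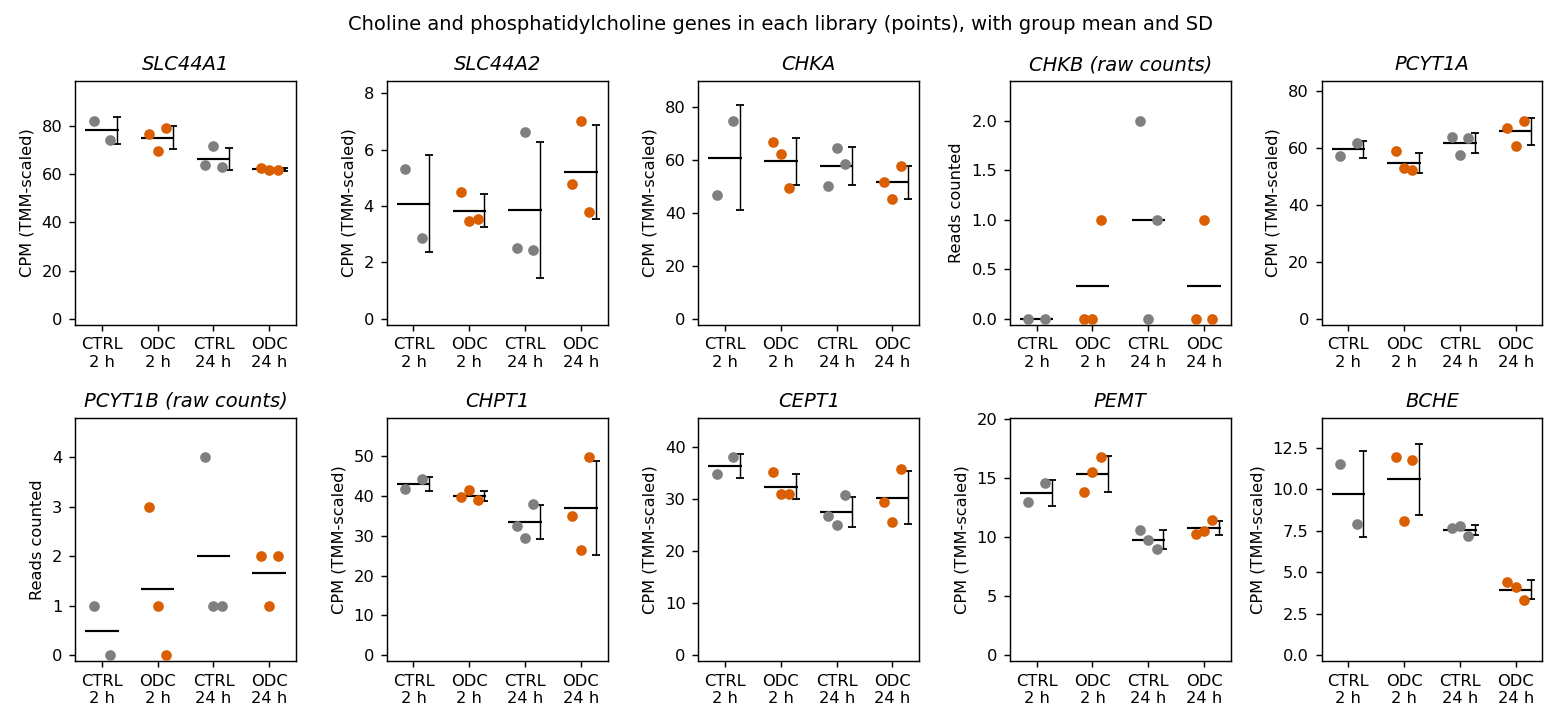
Level of each member in each of the 11 libraries (points), by group, in TMM-scaled CPM, or in raw counts for CHKB and PCYT1B. Horizontal lines are group means and bars the SD (n = 2 for CTRL at 2 h, otherwise 3, with no bar for CHKB and PCYT1B). The groups at 24 h are clearly apart for BCHE, at 7.54 and 3.97 CPM on average, and CHKB and PCYT1B do not exceed 2 and 4 counts.

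Levels can be compared between genes only per exon length, and were divided by the kilobases of exon in GENCODE release 44. In CTRL at 24 h, CHKA was the highest member at 14.8 ± 1.87 CPM per kb (SD, n = 3). PCYT1A followed with 7.75 ± 0.441, then PEMT with 5.71 ± 0.466, CHPT1 with 5.56 ± 0.721 and SLC44A1 with 5.36 ± 0.385 CPM per kb. The ranges of PEMT and CHPT1 overlapped, as did those of CHPT1 and SLC44A1, so the order among these neighbours is not resolved. CEPT1 was at 3.18 ± 0.341, BCHE at 2.45 ± 0.0996 and SLC44A2 at 0.778 ± 0.485 CPM per kb, each below the range of the gene before it. PCYT1B and CHKB came last, both at 0.0176 CPM per kb.

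The order by mean in ODC at 24 h was the same. BCHE, however, was 3.15 times as high as SLC44A2 in CTRL and 1.23 times as high in ODC, where the ranges of these genes overlapped (BCHE 1.29 ± 0.177, SLC44A2 1.05 ± 0.335 CPM per kb, SD, n = 3). In both groups at 2 h the mean of PEMT was above that of PCYT1A, 1.07 times as high in CTRL, where the ranges overlapped, and 1.30 times as high in ODC, where they did not. The transcripts that these cells use are not resolved by counts per gene, and another choice of exons would move these levels.

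**Figure D4:**
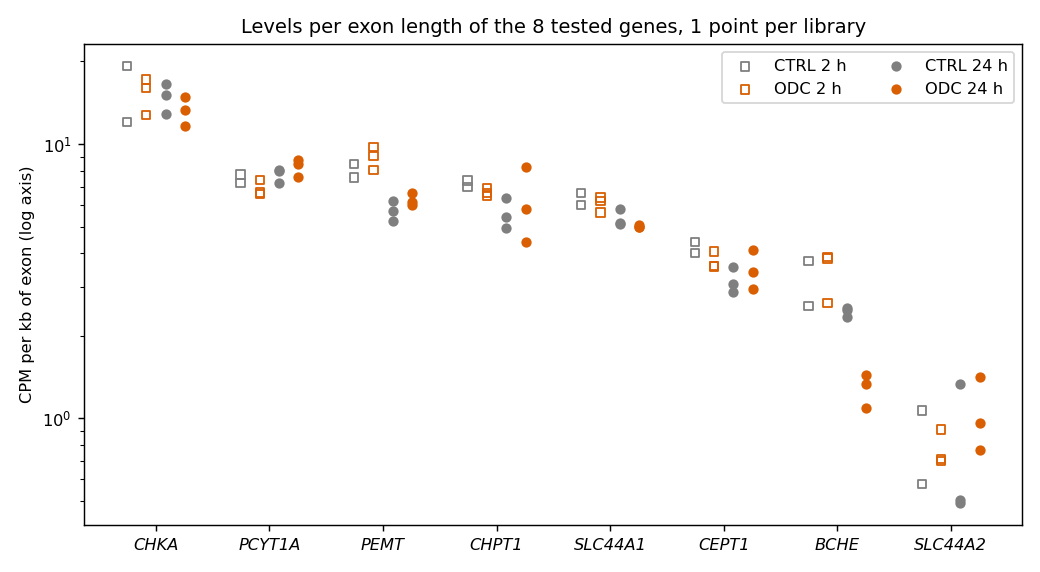
Level per exon length of the 8 tested genes, ordered by their mean in CTRL at 24 h, with 1 point per library (CPM per kilobase of exon, log axis). CHKA is highest in all 4 groups, and BCHE in ODC at 24 h (1.10 to 1.44 CPM per kb) overlaps the range of SLC44A2 there.

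For the surroundings of these genes in choline and phospholipid metabolism, 7 lists with 70 genes in all were counted, of which 54 were tested at 24 h. An adjusted p under 0.05 was reached by 0 of them, and an unadjusted p under 0.05 by 14 (25.9%), 8 higher and 6 lower in ODC. Over all genes tested the shares were 7.2% higher and 5.04% lower. The lists were chosen with earlier results of these data known, so a share above that of all genes, here or below, is no independent evidence. Genes are named here because they had an unadjusted p under 0.05, that is after their values were seen, and none of them passed the adjusted test. Of 10 phospholipase C genes tested, PLCD3 (log2 fold change 0.56) and PLCB4 (0.66) were higher and PLCH1 (-1.76, adjusted p = 0.0655) lower, with a list median of 0.026. These phospholipase C enzymes split phosphoinositides to diacylglycerol, whereas the study described the phospholipase C it reported as acting on phosphatidylcholine. Of 6 genes of choline oxidation and methyl group transfer, BHMT2 (0.88, adjusted p = 0.0859) and DMGDH (1.04) were higher and MAT2B (-0.39) lower, with a median of -0.11. The CTRL and ODC libraries overlapped for PLCB4 and DMGDH. BHMT2 and DMGDH encode enzymes of methyl group and dimethylglycine metabolism, and MAT2B a regulatory subunit of methionine adenosyltransferase.

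Of the 7 genes of the phosphatidylethanolamine and phosphatidylserine branch, the ethanolamine kinase gene ETNK2 was higher (1.51, adjusted p = 0.0989), and the list median was 0.11. Of 16 genes of phosphatidylcholine remodelling and breakdown, GPCPD1 (0.50), a glycerophosphocholine phosphodiesterase gene, was higher, and the acyltransferase genes LPCAT2 (-0.38) and LPCAT3 (-0.35) and the lysophospholipase gene LYPLA1 (-0.45) were lower, with a median of 0.12. Of 12 genes of diacylglycerol supply, AGPAT4 (0.51) and the phosphatase gene PPAP2A (0.85) were higher and LPIN1 (-0.58), a phosphatidate phosphatase gene, was lower, with a median of 0.0028. Of 10 genes of other choline transport, 3 were tested, with 0 at an unadjusted p under 0.05 and a median of 0.20. The acetylcholine list, with CHAT and ACHE, could not be tested. ACHE, the gene of the other cholinesterase, singled out after its values were seen, had 0 counts in all 3 CTRL libraries and 0, 2 and 1 in ODC at 24 h, within the floor of 3 counts per library, so a change in ACHE was not detectable at this depth. At 2 h 57 of the 70 genes were tested. None had an adjusted p under 0.05, and 1 higher (ETNK2, 0.61) and 1 lower (LYPLA1, -0.23) had an unadjusted p under 0.05, where 1.47% and 0.87% of all genes did. For the difference between the times, 0 of 56 passed with an adjusted p and 9 (16.1%) had an unadjusted p under 0.05, against 5.93% of all genes.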

How the data were processed

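The authors made stranded mRNA libraries, sequenced single-end reads, aligned them with STAR to hg38 and counted reads per gene symbol with HTSeq. The submitters' processing notes name STAR 2.7.0f, HTSeq 0.9.1 and edgeR 3.26.8, and the paper's methods name other releases of STAR and edgeR. The deposited values are raw counts in 2 tables, 1 per time point, without normalization. Replicate libraries differed by more than sampling noise (chi-square 19.7 to 61.5 per gene over 10 pairs). The sources do not say that they are separate cultures, so p-values measure the spread between libraries. Floors cover counting error only.

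Each time point was fitted on its own, ODC against CTRL. The fit used edgeR 4.0.16 (R 4.3.3), TMM scaling, filterByExpr (minimum count 10, minimum total 15) and the earlier quasi-likelihood method, two-sided, with Benjamini-Hochberg adjustment over all genes tested. The difference between the times was a contrast in a fit of all 11 libraries. Alternatives were other filters, other scalings, DESeq2 1.42.0, the newer quasi-likelihood method, a joint fit, paired libraries and each library left out. The members, gene lists, motifs and tests were chosen with earlier results of these data known. Named were the members and, per list, at most 3 genes with an adjusted p under 0.05 (none passed). Other named genes are marked as chosen after their values were seen. SELENOI and PLPP1 to PLPP3 were found under older symbols. One renal epithelial marker is not reported here. Scripts were tested on simulated data. Positions and exon lengths are from GENCODE release 44. Figures were drawn with matplotlib 3.10.9.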

Additional observations from a re-analysis of the deposited data

How the results depend on the processing

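At 24 h the number of all genes with an adjusted p under 0.05 was 24 in the fit reported, 92 when no gene with a count was filtered out, 386 with DESeq2, 186 in the joint fit of 11 libraries, 686 with adjacent library numbers as a replicate block, and 2 to 70 with 1 library left out (2 without CTRL replicate 1, 3 without ODC replicate 1, 4 without CTRL replicate 2, 12 without CTRL replicate 3, 21 without ODC replicate 2 and 70 without ODC replicate 3). Members with an adjusted p under 0.05 went from 0 to 1 under 3 of the 14 alternatives. This was BCHE with DESeq2 (log2 fold change -0.93, adjusted p = 0.00307), in the joint fit (-0.94, adjusted p = 0.0451) and with the replicate block (-0.93, adjusted p = 0.0248). With 1 library left out BCHE lay between -1.01 and -0.82 (adjusted p 0.0983 to 0.379, edgeR), and its unadjusted p was under 0.05 in all 14 alternatives. The labels do not pair the libraries. Deviations of adjacent libraries from their group means correlated at 0.27, 0.63 and 0.49 across genes. Libraries without adjacent numbers were not compared in this way, so these values cannot tell whether adjacent libraries are pairs. The replicate block also gave SLC44A2 an unadjusted p of 0.0447 (log2 fold change 0.52, adjusted p = 0.199), which made 2 members with an unadjusted p under 0.05, as without CTRL replicate 2. At 2 h, where 2 against 3 libraries could not be paired, the genes called went from 0 to 1 with DESeq2 and to between 0 and 42 with 1 library left out (42 without CTRL replicate 2), and 0 members were called. For the difference between the times they went from 2 to 7 without a filter, to 36 with DESeq2 and to between 0 and 4 with 1 library left out. BCHE lay between -1.36 and -0.83 there (adjusted p 0.149 to 0.963 over 17 alternatives), with an unadjusted p under 0.05 in each and no call. Without CTRL replicate 2 at 24 h, SLC44A2 joined BCHE with an unadjusted p under 0.05 for the difference, which made 2.

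Directions reversed only where 1 library was left out, and only for estimates that did not pass the test. With 1 library left out the log2 fold change at 24 h ranged from -0.12 to 0.34 for CHPT1. At 2 h it ranged from -0.11 to 0.016 for SLC44A1, -0.45 to 0.42 for SLC44A2, -0.33 to 0.36 for CHKA and -0.11 to 0.42 for BCHE. For the difference between the times it ranged from -0.12 to 0.0044 for SLC44A1, -0.0060 to 1.13 for SLC44A2, -0.54 to 0.16 for CHKA, -0.044 to 0.43 for CHPT1 and -0.14 to 0.045 for PEMT. Leaving out a CTRL library at 2 h leaves 1, which is then assumed to vary like the ODC libraries. The causes of these differences were not tested. With 2 or 3 libraries per group the intervals of the members reach past 0 in every comparison but those of BCHE at 24 h and between the times, and CHKB and PCYT1B were too rare to test.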
